A study of Mus musculus with 6 samples.

Results

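The genes described here are 45 components of the extracellular matrix other than the collagen chains: matrix glycoproteins, laminins, proteoglycans and the enzymes that modify and crosslink collagen. They were chosen by gene symbol, from a list set by role, and each of the 45 symbols matched exactly 1 of the 54532 gene identifiers of the deposited count table. The source was visceral fat of mice, the epididymal white adipose tissue, taken after 16 weeks of high-fat diet and profiled by RNA sequencing. The knockout group (3 libraries) was PD-1fl/fl Lyz2-Cre, with a floxed PD-1 gene and a Cre recombinase driven by the lysozyme 2 locus, which acts on the myeloid lineage, neutrophils included. The control group (3 libraries) was PD-1fl/fl littermates without Cre, and both groups received the same diet. Replicate numbers follow accession order, and values given for the knockouts or for the controls stand in the order of replicates 1, 2 and 3. Whether libraries came from separate animals is not stated, so p-values measure the spread between these libraries, and no age is given. Lyz2-Cre is not directed at fibroblasts or adipocytes, and the genes below were measured in whole tissue.

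Matrix around adipocytes is made largely by fibroblasts and their progenitors, with basement membrane laid down by adipocytes, endothelial cells and mural cells. Fibrillin microfibrils and fibulins carry elastin, fibronectin and matricellular proteins link cells to the fibres, and small leucine-rich proteoglycans bind collagen fibrils and set their diameter. Inside the cell, prolyl and lysyl hydroxylases and the chaperone HSP47 prepare procollagen, and outside it the enhancers of the C-proteinase and the lysyl oxidases process and crosslink it. Expansion and inflammation of fat in obesity are known to be accompanied by remodelling of this matrix.

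Library totals ranged from 20108185 to 27225533 counts. Pdcd1, the deleted gene, had 19, 19 and 5 counts across the knockouts against 13, 0 and 0 across the controls, and since T cells in fat also express it this does not check the labels. Control replicate 2, the library titled HF_7690_eWAT, had a liver profile and not that of fat. Alb, the albumin gene of hepatocytes, took 8.27% of its counts, against 0.436% in control replicate 3, 0.0817% in knockout replicate 2 and at most 0.00617% in each of the 3 other libraries. Adipoq, the adiponectin gene that defines adipocytes, had 1205, 817 and 2614 CPM across the knockouts against 3649, 11.2 and 1719 across the controls. Adipoq in control replicate 2 was far below its level in every other library. For the members, counts, group medians and calls are given with this library and without it. Fold changes of single genes, and the counts above 0, medians and calls of other gene lists, are without it unless stated. CPM values are counts scaled to a common library size by the TMM factors of all 6 libraries, and in bulk tissue fewer cells of a type and less RNA per cell cannot be told apart.

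Of the 45 members, 44 passed the filter on low counts, and P4ha3, a prolyl hydroxylase subunit gene, did not (6, 18 and 0 counts across the knockouts against 8, 0 and 0 across the controls). No member passed edgeR's quasi-likelihood test at an adjusted p of 0.05, with all 6 libraries (smallest adjusted p over the members 0.560) or without control replicate 2 (0.540), and the same test called 0.00% of all genes tested in each of these fits. The background at an unadjusted p of 0.05 with knockouts higher was 4.38% of all genes in the fit of 6 libraries and 5.46% in that of 5, against 3 (Emilin1, Lum and Pcolce) and 4 (Mfap5, Lum, Pcolce and Pcolce2) members of 44. DESeq2 called 2 members with all 6 libraries, Lum and Pcolce, and 4 without control replicate 2, Lum, Pcolce, Pcolce2 and Mfap5, all with knockouts higher, where it called 1.73% and 2.13% of all genes in that direction. The fold changes that did not pass lay mostly on one side. With all 6 libraries 41 of 44 members had a log2 fold change above 0, against 48.0% of all genes, and their median was 1.01 against -0.031 over all genes. Without control replicate 2 it was 36 of 44, against 47.1% of all genes, with a median of 0.62 against -0.037. Every knockout lay above every control for 11 of 44 members with all 6 libraries, against 9.54% of all genes tested, and for 11 of 44 without control replicate 2, against 13.6%. Single libraries moved these medians. The median over all 6 libraries was 1.85 without control replicate 3, and that without control replicate 2 was 0.34 when knockout replicate 2 was also left out, 0.29 without control replicate 1 and 1.21 without control replicate 3. DESeq2 with 1 knockout left out of the 5 libraries called 0 members without replicate 1, 1 without replicate 2 and 8 without replicate 3, all with knockouts higher. The share of all genes called in these fits was not computed, so these counts have no background beside them.

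The list mean of log2(CPM + 1) over the 45 genes was 6.26, 6.70 and 5.77 across the knockouts against 5.28, 3.04 and 6.00 across the controls. Knockout replicates 1 and 2 stood highest, control replicate 3 lay above knockout replicate 3, and control replicate 2 was far below the rest. Of the 44 tested members, 41 had their lowest value in control replicate 2, against 41.1% of all genes, and 1, Fn1, had its highest value there, against 31.2% of all genes. The median over the 45 members of the level in control replicate 2 was 8.06% of the median of the 5 other libraries. Knockout replicate 2 had the highest value for 25 of the 45 members. The share of all genes highest in that library was not computed, so this count is not shown to be particular to the members.

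**Figure D1:**
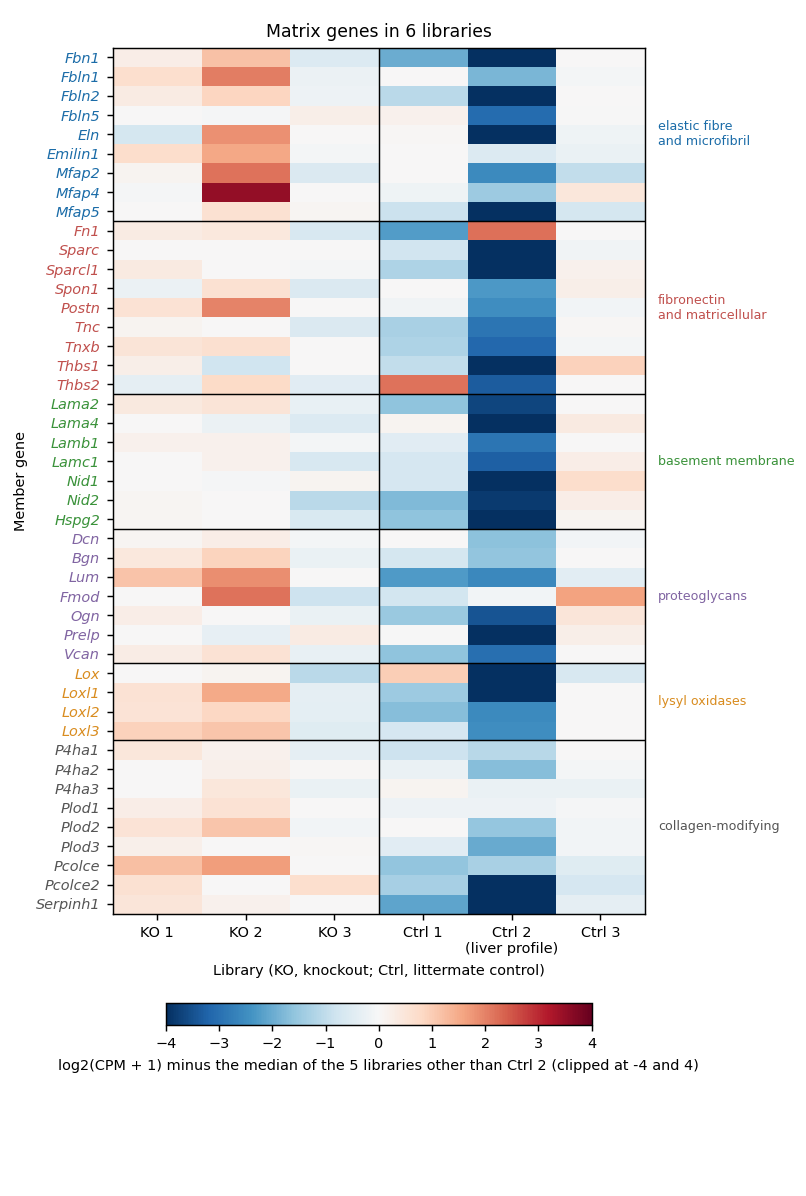
Heat map of the 45 members (rows, coloured by role group) in the 6 libraries (columns), as log2(CPM + 1) minus the median of the 5 libraries other than control replicate 2. Control replicate 2 is the lowest library for 41 of the 44 tested genes and the highest for Fn1. Knockout replicate 2 holds the highest value for 25 of the 45 genes, and the share over all genes was not computed.

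**Figure D2:**
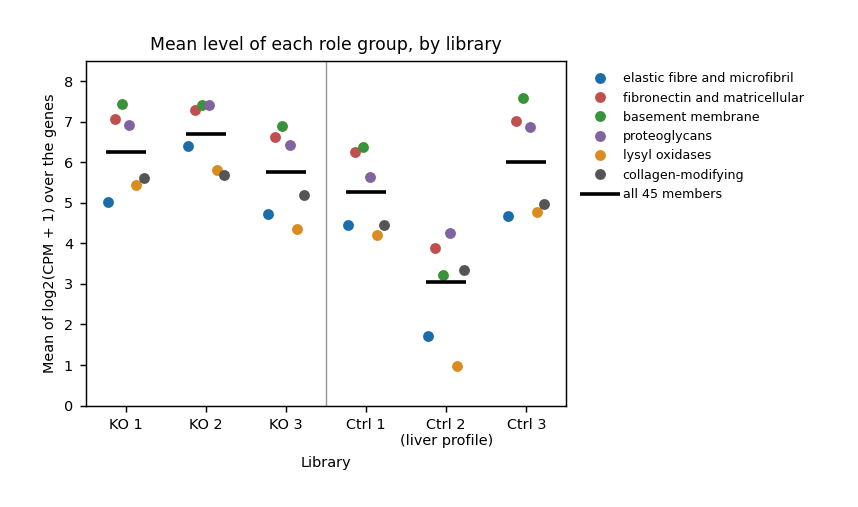
Mean of log2(CPM + 1) over the genes of each role group (coloured points) and over all 45 members (bars), for each library. The bars stand at 6.26, 6.70 and 5.77 in the knockouts and at 5.28, 3.04 and 6.00 in the controls, and the basement membrane group (green) has its highest mean, 7.58, in control replicate 3.

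Levels between genes were compared on the deposited FPKM, which divides by gene length, as means over the 5 libraries other than control replicate 2. Sparc, a calcium-binding matricellular protein that binds collagen, was the most abundant member at 745 FPKM. It was followed by the proteoglycan gene Prelp (205), the collagen chaperone gene Serpinh1 (185), the decorin gene Dcn (121), Sparcl1 (80.2) and the nidogen gene Nid1 (67.8). The lowest of those tested were Spon1 at 1.12, Vcan at 1.13, Tnc at 1.14 and Loxl3 at 1.19 FPKM. Sparc made up 30.4% to 37.8% of the summed CPM of the 45 members in the 5 libraries and 4.45% in control replicate 2.

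Genes of elastic fibres and microfibrils had the highest median log2 fold change of the structural groups, 1.63 with all 6 libraries (9 of 9 above 0) and 1.08 without control replicate 2 (8 of 9 above 0). Mfap5, which encodes the microfibril-associated glycoprotein MAGP-2 (chromosome 6, 122505845 to 122529290, plus strand, mm10), had 41.5, 63.7 and 43.4 CPM across the knockouts against 22.5, 0.268 and 25.04 across the controls. Each knockout was above each control, and control replicate 2 was at the floor of 3 counts. Its log2 fold change was 1.08 ± 0.29 (SE) without control replicate 2 and 1.63 ± 1.19 with all 6 libraries, with edgeR adjusted p-values of 0.540 and 0.707. DESeq2 called it without control replicate 2 (adjusted p 0.0466) and with all 6 libraries did not (0.620), and in the DESeq2 fits that left out 1 more of the 5 libraries it stayed under 0.05 only without knockout replicate 3 (0.0231), with 0.105 to 0.481 in the 4 others.

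Other fold changes of this group rested on 1 library. Mfap4, a microfibril-binding protein of elastic fibres whose exons overlap those of Mapk7 on the other strand, had 2.09, 35.5 and 2.21 CPM across the knockouts against 1.87, 0.179 and 3.41 across the controls. Knockout replicate 2 was far above every other library, and the log2 fold change of 2.38 ± 1.46 (SE, without control replicate 2) turned to -0.31 when knockout replicate 2 was left out. Mfap2 (MAGP-1) had 5.39, 25.3 and 2.91 CPM across the knockouts against 4.87, 0 and 1.98 across the controls, again with the highest value in knockout replicate 2. Eln, the elastin gene, had 48.4, 283 and 78.9 CPM across the knockouts against 81.5, 2.15 and 70.0 across the controls. Its log2 fold change without control replicate 2 was 0.89 ± 0.78, and -0.27 when knockout replicate 2 was also left out. Of the 7 mesothelial markers, 6 were also highest in knockout replicate 2, and Wt1 was at 6.28 CPM there and at 6.49 in control replicate 3. Msln had 0.0654, 11.4 and 0.349 CPM across the knockouts against 0.150, 3.22 and 2.46 across the controls, and Upk3b had 0.0327, 15.3 and 0.194 against 0.112, 4.83 and 2.97. The 7 mesothelial markers summed to 50.6 CPM in knockout replicate 2 and to 3.50 to 19.7 in the 5 others, and their part in these values was not tested.

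The fibrillin gene Fbn1, the backbone of microfibrils, had 116, 223 and 66.5 CPM across the knockouts against 23.8, 2.95 and 97.5 across the controls, so that control replicate 3 lay between the knockouts. Fbln2 had 187, 273 and 129 CPM across the knockouts against 69.8, 4.83 and 149 across the controls with the same order, and its log2 fold change was 0.87 ± 0.48 without control replicate 2. Fbln1 (1.27 ± 0.71) and Emilin1 (1.08 ± 0.53), an elastic fibre glycoprotein, had their highest values in knockout replicate 2, at 51.5 and 44.3 CPM. Emilin1 was the only member of this group with an unadjusted p under 0.05 with all 6 libraries (1.19 ± 0.47), where its control values were 14.5, 9.66 and 11.8 CPM. Fbln5, which anchors elastin to cells, overlapped between the groups with and without control replicate 2, with 87.6, 85.5 and 103 CPM across the knockouts against 97.7 and 87.4 in control replicates 1 and 3. Its log2 fold change was -0.0011 ± 0.23 (SE) by TMM, 0.15 with total counts and 0.50 ± 0.77 with all 6 libraries.

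Fibronectin and the matricellular proteins did not share one pattern. Fn1, which encodes fibronectin, a protein that fibroblasts deposit and hepatocytes secrete into plasma (chromosome 1, 71585520 to 71653200, minus strand), had 316, 336 and 161 CPM across the knockouts against 52.3, 1172 and 252 across the controls. The value in control replicate 2 was 465% of the median of the other libraries, and this was the only member whose highest value was in the library with a liver profile. The log2 fold change of Fn1 was -0.86 ± 1.05 (SE) with all 6 libraries and 0.86 ± 0.70 without control replicate 2, with edgeR adjusted p-values of 0.850 and 0.743. Among the 5 other libraries control replicate 1 was lowest, and control replicate 3, with Alb at 0.436% of counts, lay between the knockouts.

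Sparc (chromosome 11, 55394500 to 55423183, minus strand) had 3521, 3531 and 3535 CPM across the knockouts against 2076, 89.5 and 3182 across the controls. The 3 knockouts differed little, with a mean of 3529 ± 7.13 CPM (SD, n = 3), and each lay above each control, but control replicate 3 was near them and the log2 fold change without control replicate 2 was 0.44 ± 0.37 (SE, edgeR adjusted p 0.749). Sparcl1, its paralog, had 353, 276 and 265 CPM across the knockouts against 116, 9.48 and 310.0 across the controls, and its groups overlapped. Postn, which encodes periostin, a matricellular protein of fibrotic tissue, had 179.8, 485 and 121 CPM across the knockouts against 109, 20.7 and 111 across the controls. Each knockout was above each control, by a narrow margin for knockout replicate 3, and the log2 fold change was 1.28 ± 0.65 (SE) without control replicate 2 and 1.70 ± 0.82 with all 6 libraries. Tnxb, a tenascin of loose connective tissue, had 141, 154 and 99.3 CPM across the knockouts against 41.5, 10.5 and 93.3 across the controls without overlap (0.99 ± 0.42, adjusted p 0.563). Tnc, the tenascin of wound repair, had 13.2, 12.1 and 7.68 CPM across the knockouts against 4.31, 0.715 and 12.4 across the controls with overlap.

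The thrombospondins and Spon1, which encodes spondin 1, had log2 fold changes below 0 by TMM without control replicate 2, and that of Spon1 was above 0 with total counts. Thbs2, an inhibitor of angiogenesis and regulator of fibril assembly, had 37.4, 82.8 and 35.2 CPM across the knockouts against 224, 3.94 and 48.6 across the controls. Control replicate 1 was far above every other library, and the log2 fold change of -1.38 ± 0.71 without control replicate 2 became 0.14 when control replicate 1 was left out as well and -2.09 when control replicate 3 was. Thbs1, which activates latent TGF-beta, had 213, 103 and 180.0 CPM across the knockouts against 89.5, 4.74 and 344 across the controls, with the highest value in control replicate 3, and its log2 fold changes were -0.38 ± 0.59 and, with all 6 libraries, 0.18 ± 1.21. Spon1 had 10.5, 19.5 and 7.88 CPM across the knockouts against 12.4, 1.70 and 14.9 across the controls, a log2 fold change of -0.090 ± 0.45 by TMM without control replicate 2, and 0.064 with total counts. None of these 3 differences was larger than the spread between libraries by edgeR (adjusted p 0.597, 0.867 and 0.960).

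Basement membrane genes had the lowest median without control replicate 2, 0.20 with 5 of 7 above 0, against 0.71 with 7 of 7 above 0 in all 6 libraries. For 5 of the 7, Lama4, Lamc1, Nid1, Nid2 and Hspg2, the highest of the 6 libraries was control replicate 3. The share of all genes highest in control replicate 3 was not computed. Nid1, the linker between laminin and type IV collagen networks, had 497, 478 and 539 CPM across the knockouts against 311, 24.2 and 816 across the controls. Hspg2, which encodes perlecan, the main heparan sulfate proteoglycan of basement membranes, had 548, 522 and 343 CPM across the knockouts against 171, 12.5 and 567 across the controls. In both genes control replicate 1 was the lower of control replicates 1 and 3 and control replicate 3 exceeded all knockouts. Their log2 fold changes without control replicate 2 were -0.14 ± 0.44 and 0.37 ± 0.55, and were 0.71 and 1.47 without control replicate 3 as well.

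Among the laminins, Lama4, the alpha chain of adipocyte and endothelial basement membranes, had 129, 109 and 88.4 CPM across the knockouts against 138, 1.97 and 167 across the controls. With control replicate 2 out, each knockout lay below each control, which held for 1 of the 44 members and for 11.9% of all genes tested, and its log2 fold change was -0.47 ± 0.27 (SE, edgeR adjusted p 0.633). Lama2, the alpha chain of muscle and mesenchymal basement membranes, stood on the other side, with 42.7, 47.0 and 26.4 CPM across the knockouts against 10.04, 1.61 and 32.4 across the controls (0.89 ± 0.54). The beta chain gene Lamb1 (0.33 ± 0.26) and the gamma chain gene Lamc1 (0.041 ± 0.40), partners of both alpha chains, were at 125 to 150.2 and 131 to 229 CPM in knockouts, and control replicates 1 and 3 had 95.3 and 132 CPM of Lamb1 and 127 and 244 of Lamc1. Nid2, whose exons overlap those of Rtraf on the other strand, had 95.0, 90.0 and 42.1 CPM across the knockouts against 25.8, 5.46 and 108 across the controls (0.20 ± 0.65). The difference between the 2 alpha chains was not tested.

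Among proteoglycans 1 gene stood apart. Lum, which encodes lumican, a small leucine-rich proteoglycan that limits the width of collagen fibrils (chromosome 10, 97565128 to 97572703, plus strand), had 150.2, 251 and 67.9 CPM across the knockouts against 13.3, 10.6 and 50.9 across the controls. Each knockout was above each control, control replicates 1 and 2 were lowest, and knockout replicate 3 was close to control replicate 3. The log2 fold change was 2.32 ± 0.80 (SE) without control replicate 2 and 2.65 ± 0.81 with all 6 libraries, with edgeR adjusted p-values of 0.540 and 0.560. DESeq2 called Lum without control replicate 2 (adjusted p 0.0492) and with all 6 libraries (0.0382). With 1 more of the 5 libraries left out, its DESeq2 call was lost without knockout replicate 1 (0.281), knockout replicate 2 (0.285) or control replicate 1 (0.373), and kept without knockout replicate 3 (0.00163) or control replicate 3 (8.33e-05).

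The other proteoglycans had smaller fold changes or wider spread. Dcn, which encodes decorin and lies on chromosome 10 like Lum, had 817, 939.5 and 733 CPM across the knockouts against 773, 246 and 714 across the controls, and its log2 fold change without control replicate 2 was 0.17 ± 0.30. It kept more of its level in control replicate 2 than most members, 31.8% of the median of the other libraries. Bgn, the biglycan gene on the X chromosome, had 349.6, 482 and 219 CPM across the knockouts against 160.0, 87.7 and 262 across the controls (0.75 ± 0.44), with control replicate 3 above knockout replicate 3. Prelp, a collagen-binding protein anchored at basement membranes, had 803, 634 and 1012 CPM across the knockouts against 787, 44.1 and 941 across the controls, with a log2 fold change of -0.075 ± 0.33 by TMM, 0.050 with total counts and 0.47 ± 0.99 with all 6 libraries. Ogn (osteoglycin) had 96.7, 81.0 and 66.5 CPM across the knockouts against 28.2, 6.53 and 113 across the controls (0.23 ± 0.56). Fmod (fibromodulin) was low in most libraries, at 3.86, 21.1 and 1.71 CPM across the knockouts against 1.91, 3.49 and 13.7 across the controls. Its highest values were in knockout replicate 2 and control replicate 3, the 2 libraries of the 5 with the most mesothelial transcripts. The mean log2(CPM + 1) of the hepatocyte markers was also highest of the 5 in these libraries, at 6.83 and 8.64. The part of either cell type in the values of Fmod was not tested. Vcan, the large hyaluronan-binding proteoglycan versican, had 23.1, 28.8 and 15.2 CPM across the knockouts against 5.54, 1.43 and 18.8 across the controls (0.90 ± 0.57). None of these 6 genes passed the edgeR test in either fit.

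The lysyl oxidases, copper enzymes that crosslink collagen and elastin, divided into Lox and its 3 paralogs. Lox had 149, 160.4 and 70.1 CPM across the knockouts against 295, 0.537 and 95.7 across the controls. Control replicate 1 held the highest value and control replicate 2 only 6 counts, and the log2 fold change with all 6 libraries was -0.046 ± 1.51 by TMM and 0.19 with total counts. Without control replicate 2 it was -0.62 ± 0.58 (edgeR adjusted p 0.773). Loxl1, which is needed for elastic fibre renewal, had 66.9, 129 and 34.4 CPM across the knockouts against 15.8, 1.61 and 44.7 across the controls. Loxl2, which acts on type IV collagen and shares an exon overlap with Mir6950 on the same strand, had 31.9, 38.9 and 16.1 CPM across the knockouts against 5.84, 2.86 and 21.4 across the controls. Loxl3, whose exons overlap those of Htra2 on the other strand, had 9.61, 10.9 and 2.95 CPM across the knockouts against 2.47, 0 and 4.58 across the controls. In all 3 paralogs knockout replicates 1 and 2 were highest and control replicate 3 lay above knockout replicate 3, with log2 fold changes without control replicate 2 of 1.38 ± 0.70, 1.12 ± 0.64 and 1.17 ± 0.66 and edgeR adjusted p-values of 0.596, 0.644 and 0.634. Control replicate 1, where Lox was highest, had the lowest levels of all 3 among the 5 libraries.

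Among genes for collagen processing each knockout lay above each control for 6 of the 8 tested, P4ha2, Plod1, Plod3, Pcolce, Pcolce2 and Serpinh1, in both fits, against 9.54% of all genes with 6 libraries and 13.6% with 5. The difference from the other role groups was not tested. The median log2 fold change was 0.92 with all 6 libraries and 0.62 without control replicate 2, with 8 of 8 above 0 in each. The 250 bases before the RefSeq start of 3 of these 6 genes are printed here because the levels of these genes did not overlap between the groups, read 5' to 3' on the gene's strand in build GRCm38.p6.
Plod1, chr4:147936777-147937026, minus strand: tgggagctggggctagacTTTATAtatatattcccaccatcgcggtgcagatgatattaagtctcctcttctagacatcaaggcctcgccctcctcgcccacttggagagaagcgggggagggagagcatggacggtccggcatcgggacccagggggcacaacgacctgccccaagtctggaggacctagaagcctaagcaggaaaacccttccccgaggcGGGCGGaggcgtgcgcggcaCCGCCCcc
Serpinh1, chr7:99353240-99353489, minus strand: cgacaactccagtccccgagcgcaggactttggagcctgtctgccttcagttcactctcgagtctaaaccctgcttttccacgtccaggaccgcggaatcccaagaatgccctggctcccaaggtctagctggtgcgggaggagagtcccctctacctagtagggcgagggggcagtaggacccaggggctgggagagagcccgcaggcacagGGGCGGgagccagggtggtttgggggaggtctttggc
Plod3, chr5:136986769-136987018, plus strand: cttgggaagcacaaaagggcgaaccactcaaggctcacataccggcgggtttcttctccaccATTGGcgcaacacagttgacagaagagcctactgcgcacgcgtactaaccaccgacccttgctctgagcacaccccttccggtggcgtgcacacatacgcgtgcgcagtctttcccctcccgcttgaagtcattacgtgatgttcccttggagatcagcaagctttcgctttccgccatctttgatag
Capitals mark matches, on either strand, to the Sp1 GC box GGGCGG, the CCAAT box CCAAT, the TATA box TATAAA, the heat shock element GAANNTTC or the AP-1 site TGANTCA. The GC box was found in the windows of 5 of the 6 genes and not in that of Plod3, which held a CCAAT box, and Plod1 alone held a TATA box match, far from its start. The heat shock element and the AP-1 site were in none of the 6. Over all 32851 windows of the same length, 32.7% held the GC box, 33.9% the CCAAT box, 12.4% the TATA box, 6.69% the heat shock element and 6.75% the AP-1 site. Entries were found for 28 of the 45 members, and of these 18 held the GC box in any of their windows. That is a count of genes and the 32.7% is a share of single windows, so they are not directly comparable. A match describes these letters and is not evidence of binding.

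Both enhancers of procollagen C-proteinase, which speed the removal of the C-propeptide, were among the highest fold changes of the set. Pcolce (chromosome 5, 137605103 to 137613784, minus strand) had 79.4, 109 and 33.6 CPM across the knockouts against 10.6, 13.1 and 23.7 across the controls. Each knockout was above each control, with knockout replicate 3 the nearest to them. Its log2 fold change was 2.13 ± 0.62 (SE) without control replicate 2 and 2.22 ± 0.55 with all 6 libraries (edgeR adjusted p 0.540 and 0.560). An exon of Fbxo24 overlaps Pcolce on the same strand, so reads of the 2 genes may not be fully separated. DESeq2 called Pcolce in both fits (adjusted p 0.0247 and 0.0186). With 1 more of the 5 libraries left out that call was lost without knockout replicate 1 (0.250), knockout replicate 2 (0.174) or control replicate 1 (0.311).

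Pcolce2, a heparin-binding paralog (chromosome 9, 95637601 to 95698096, plus strand), had 85.7, 55.6 and 88.3 CPM across the knockouts against 21.3, 1.70 and 34.3 across the controls. Here knockout replicate 3 was the highest library, and it was 2.57 times control replicate 3, the largest such ratio of all members. The log2 fold change was 1.47 ± 0.33 (SE) without control replicate 2 and 2.00 ± 0.93 with all 6 libraries, with edgeR adjusted p-values of 0.540 and 0.561. DESeq2 called it without control replicate 2 (adjusted p 0.00963) and with all 6 libraries did not (0.303). In the DESeq2 fits without 1 more of the 5 libraries the call was lost without knockout replicate 1 (0.278) or control replicate 1 (0.201) and kept in the 3 others, with adjusted p-values of 0.00187 to 0.0175.

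Serpinh1, which encodes HSP47, the chaperone specific to procollagen (chromosome 7, 99345376 to 99353239, minus strand), had 785, 627 and 559 CPM across the knockouts against 128, 31.8 and 437 across the controls. All knockouts were above all controls, and control replicate 3 was nearer to the knockouts than to control replicate 1. The log2 fold change was 1.24 ± 0.56 (SE) without control replicate 2 and 1.72 ± 0.91 with all 6 libraries (edgeR adjusted p 0.568 and 0.593), and with 1 more of the 5 libraries left out it ran from 0.62 without control replicate 1 to 2.37 without control replicate 3. Plod1 and Plod3 are lysyl hydroxylases, and Plod3 also glycosylates collagen. Plod1 had 117, 143 and 96.4 CPM across the knockouts against 84.1, 83.1 and 93.2 across the controls (0.44 ± 0.28 and, with all 6 libraries, 0.45 ± 0.29). The controls had little spread, with control replicate 2 near the 2 others, and the knockouts had more. Knockout replicate 3 was only slightly above control replicate 3. Exons of Plod3 overlap Mir702 on the same strand and Znhit1 on the other. Plod3 had 132, 114 and 118 CPM across the knockouts against 83.0, 27.3 and 106 across the controls (0.38 ± 0.24). Plod2, the telopeptide lysyl hydroxylase, had 14.5, 21.8 and 8.81 CPM across the knockouts against 9.55, 2.59 and 8.87 across the controls (0.73 ± 0.44), with overlap. The prolyl hydroxylase subunit genes P4ha1 and P4ha2 had log2 fold changes of 0.51 ± 0.37 and 0.27 ± 0.23. P4ha1 had 49.2, 40.8 and 27.6 CPM across the knockouts against 19.9, 16.2 and 35.9 across the controls, with overlap, and P4ha2 had 19.7, 22.6 and 20.2 CPM across the knockouts against 16.1, 5.37 and 18.8 across the controls, without.

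**Figure D3:**
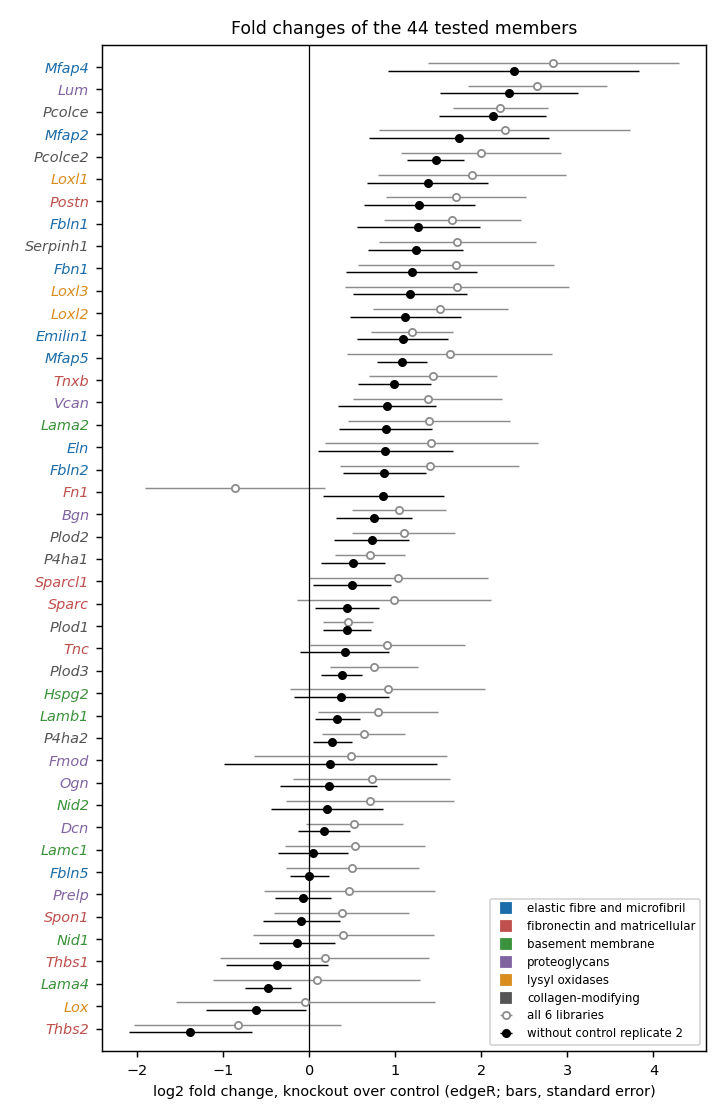
Log2 fold change of knockout over control for the 44 tested members (edgeR, bars are standard errors), with all 6 libraries (open points) and without control replicate 2 (filled points), ordered by the latter. Filled points run from -1.38 for Thbs2 to 2.38 for Mfap4, 36 of 44 lie above 0, and Fn1 is on opposite sides of 0 in the 2 fits.

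The titles of knockout replicate 3 and control replicate 3 carry neighbouring numbers, far from those of the other 4 libraries. The labels do not say what the numbers mean, and they were used to set single libraries side by side and as a term in an alternative fit, with and without control replicate 2. That title number term only separated knockout replicate 3 and control replicate 3 from the other libraries. Knockout replicate 1 was above control replicate 1 for 38 of 44 tested members, against 50.7% of all genes, and knockout replicate 2 for 39 of 44, against 51.0%, with median ratios over the 45 members of 1.84 and 2.87. Knockout replicate 3 was above control replicate 3 for 17 of 44, against 49.4% of all genes, with a median ratio of 0.846. The difference between these pairs of libraries was not tested. All 7 basement membrane genes and all 4 lysyl oxidases were higher in control replicate 3 than in knockout replicate 3, with median ratios of 0.605 and 0.742 of knockout over control. In the collagen-modifying group the median ratio was 1.10, and Pcolce2, Pcolce and Serpinh1 had the highest ratios (2.57, 1.42 and 1.28). With the title number as a term, the median over the members was 0.62 without control replicate 2 and 1.39 with all 6 libraries, and edgeR called no member in either fit.

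**Figure D4:**
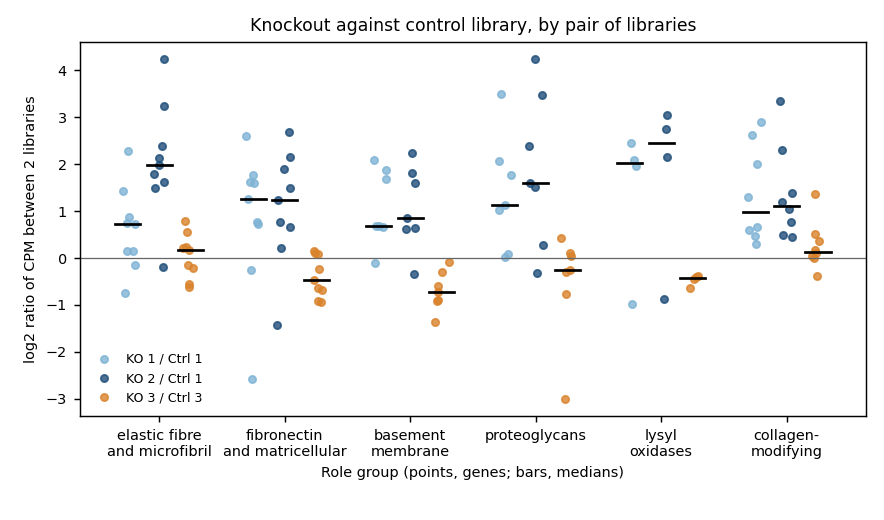
Log2 ratio of CPM between 1 knockout and 1 control library for each tested member (points), by role group, with medians as bars. Ratios of knockout replicates 1 and 2 over control replicate 1 lie mostly above 0 (38 and 39 of 44), and those of knockout replicate 3 over control replicate 3 lie mostly below it (17 of 44 above).

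Genes of the same pathways outside the members were read from lists chosen by role. Of 17 collagen chain genes, 17 had a log2 fold change above 0 without control replicate 2, with a median of 1.18, 0 passed the edgeR test and DESeq2 called 1 with knockouts higher. Col8a1 and Col16a1 had the smallest p, at 1.79 ± 0.53 and 1.47 ± 0.52 (SE, edgeR adjusted p 0.540 for both). Of 40 further matrix and collagen-processing genes, 37 were tested, 29 had a value above 0 (median 0.54) and 0 passed by edgeR or DESeq2. With all 6 libraries 0 passed by edgeR and DESeq2 called 1 in each direction. Podn, the proteoglycan podocan, had 23.7, 19.0 and 23.7 CPM in knockouts against 37.6 and 38.5 in control replicates 1 and 3, and Spon2 had 7.39, 9.19 and 9.82 against 2.81 and 4.95 (1.20 ± 0.39). Of 21 matrix receptor genes 11 had a value above 0 (median 0.074), with 0 edgeR calls and 1 DESeq2 call in each direction. The hyaluronan receptor gene Cd44, which leukocytes also carry, had 229, 235 and 46.4 CPM across the knockouts against 11.3, 10.6 and 31.6 across the controls, and the syndecan gene Sdc4 had 58.5, 63.1 and 55.7 CPM across the knockouts against 131, 744 and 114 across the controls. Of 14 TGF-beta signalling genes 5 had a value above 0 (median -0.22), again with 0 edgeR calls, and DESeq2 called 1 with knockouts lower. With all 6 libraries 9 of the 14 were above 0 and the median was 0.145, with 0 calls by either test. The ligand gene Tgfb1 had 119, 185 and 55.5 CPM across the knockouts against 33.0, 13.9 and 41.7 across the controls.

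Markers of the cells that could supply these transcripts are given beside the members. The 10 fibroblast and progenitor markers summed to 549, 622 and 519 CPM across the knockouts against 374, 231 and 461 across the controls, above 0 in log2 fold change for 8 of 10 without control replicate 2 (median 0.93), with 0 edgeR calls. In control replicate 2 most of this sum was Dpp4, at 172 CPM against 2.06 to 18.3 CPM in the other libraries, and Clec3b had 0. Pdgfra, which defines fibroblasts and adipose progenitors, had 53.1, 41.9 and 35.4 CPM across the knockouts against 16.4, 8.41 and 33.1 across the controls. In each library the mean log2(CPM + 1) of the 45 members exceeded that of the fibroblast markers by 1.04, 1.11 and 0.74 across the knockouts and by 1.45, 0.22 and 1.00 across the controls. The value of 0.22 in control replicate 2 includes the high Dpp4 level there. On this scale the knockouts overlapped with the 2 controls other than replicate 2. The 10 macrophage markers summed to 2437, 4481 and 567 CPM across the knockouts against 326, 94.0 and 287 across the controls, with 10 of 10 above 0 and a median of 2.64 without control replicate 2, and edgeR called 0 of them and DESeq2 7. Adgre1, which encodes F4/80, had 268, 379 and 49.3 CPM across the knockouts against 28.9, 12.1 and 33.5 across the controls. The 10 adipocyte markers summed to 20655, 15057 and 42959.6 CPM across the knockouts against 62002, 870.2 and 27212 across the controls. In log2 fold change 0 of 10 were above 0 without control replicate 2 (median -0.67) and 4 of 10 with all 6 libraries (median -0.10). The 8 endothelial markers summed to 1079, 849 and 1039 CPM across the knockouts against 1180.1, 185 and 1149 across the controls. The 8 smooth muscle and pericyte markers summed to 768, 699 and 1057 against 666, 95.5 and 1135 CPM, the 6 hepatic stellate cell markers to 128, 149 and 99.8 against 70.8, 260.4 and 101 and the 5 Schwann cell markers to 39.9, 37.0 and 31.5 against 43.7, 4.65 and 31.4. The 10 hepatocyte markers summed to 221748 CPM in control replicate 2. No marker of the fibroblast, adipocyte, macrophage, endothelial or mural lists was at 0 in any of the 5 libraries. The part of each cell type in the values of the members was not tested.

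**Figure D5:**
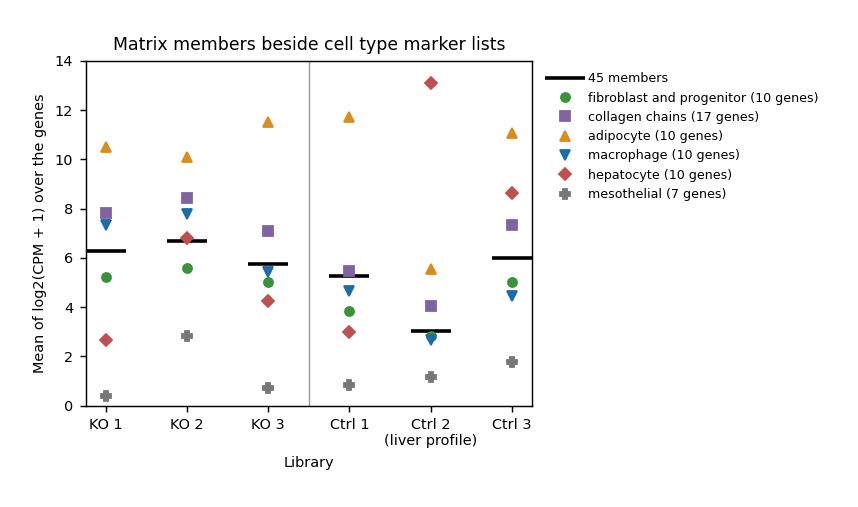
Mean of log2(CPM + 1) in each library for the 45 members (bars), the collagen chains and 5 cell type marker lists (symbols, number of genes in the legend). The members and the fibroblast markers are both highest in knockout replicate 2 (6.70 and 5.58) and lowest in control replicate 2 (3.04 and 2.82), where hepatocyte markers reach 13.1.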

How the data were processed

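Libraries of mRNA from 6 samples were sequenced. Per the submitters' processing notes the authors used featureCounts 1.5.0-p3, StringTie 1.3.3b, HISAT2 2.0.5 and fastp with build mm10, in an order not given there. The strand setting is not given in the sources used here, and exons of 17 of the 45 members overlap another gene on the opposite strand and 3 on the same strand. The authors deposited raw counts per gene, which were used for all tests, and the deposited FPKM values, which carry the authors' own library scale and served for levels between genes and for alternatives.

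Symbols were matched for 54409 of 54532 identifiers. Coordinates are those of GENCODE on GRCm38, the assembly of mm10. Promoter sequences come from RefSeq (GRCm38.p6). Knockouts were compared with controls by edgeR 4.0.16 (quasi-likelihood, robust, TMM, filterByExpr) over 15928 genes in 6 libraries and 16729 in the 5 libraries other than control replicate 2, with Benjamini-Hochberg adjustment over all genes at 0.05. DESeq2 1.42.0 and limma 3.58.1 served as alternatives, with other scalings, filters, a title number term and each library left out. Scripts were tested on simulated data. Named for the sensitivity tables were 31 members: in each role group the 3 of highest FPKM and those with the largest and smallest fold change, the 4 lysyl oxidases, and each member called or differing in sign between the fits. From each pathway list the 2 genes of smallest p were named. 1 of these is not reported here. Other members are given as values. Members and lists were chosen with earlier results of these data known. An exact permutation test of 3 against 3 cannot go below 0.1, and none was run. The floor was set at 3 counts per library. Replicate libraries differed by more than sampling noise (chi-square per degree of freedom 56.8 to 1112).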

Additional observations from a re-analysis of the deposited data

How the results depend on the processing

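The adjusted p-values of the edgeR test passed nowhere among the members under the planned settings (other scalings, filters, thresholds, limma on counts or FPKM, a title number term, 1 library left out), and limma-voom and limma on FPKM called 0 genes. DESeq2 called 525 genes in 6 libraries and 470 in the 5 other than control replicate 2, and 2 and 4 members, where edgeR called 0 and 0 (1377 and 1499 genes at an unadjusted p of 0.05). With 1 library left out DESeq2 called 0 to 10 members starting from 6 libraries and 0 to 15 from 5. Only knockout replicates 1 and 3 and control replicate 1, added after seeing the data, gave 18 edgeR genes and 0 members, with the lone control assumed to vary like the knockouts. Apart from the fit without control replicate 2 alone, the share of all genes called by DESeq2 with 1 library left out was not computed. Those member counts have no background beside them and cover both directions. Among the calls from 5 libraries, Thbs2 had knockouts lower without control replicate 3 (log2 fold change -2.10), where a lone control was left. The median over members was 0.77 to 1.85 with 1 library left out of 6 and 0.62 without control replicate 2, 0.29 to 1.21 with 1 left out of 5, 1.58 with voom and 1.53 with FPKM + 0.1 in all 6, and 0.81 in the 3 libraries. Total counts moved the median of all genes to 0.34 with all 6 libraries and 0.11 without control replicate 2, so that the members lay 0.81 and 0.66 above it. No paired analysis was possible because the labels give the groups no shared replicate numbers.

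Single genes changed sign, and the lists below cover only the 31 named members. Members outside those also changed sign with 1 library left out of 5. These were Fmod (-1.48 to 2.23), Nid2 (-0.47 to 1.57), Ogn (-0.44 to 1.54) and Tnc (-0.14 to 1.36). The cause was not tested, and no member had an adjusted p under 0.05 in these edgeR and limma fits. With all 6 libraries, log2 fold changes were as follows. Fbln5 (0.50) was -0.0011 to 0.92 with 1 library left out. Fn1 (-0.86) was -1.39 to 0.86 with 1 library left out, 0.031 with FPKM + 0.1. Spon1 (0.38) was -0.090 to 0.83 with 1 library left out. Thbs1 (0.18) was -0.38 to 1.81 with 1 library left out. Thbs2 (-0.83) was -1.38 to 0.98 with 1 library left out, 0.19 with voom, 0.072 with FPKM + 1, 0.37 with FPKM + 0.1. Lama4 (0.088) was -0.47 to 0.63 with 1 library left out. Nid1 (0.39) was -0.14 to 1.59 with 1 library left out. Prelp (0.47) was -0.075 to 0.97 with 1 library left out. Lox (-0.046) was -0.62 to 1.39 with 1 library left out, 0.19 with total counts, 1.61 with voom, 1.15 with FPKM + 1, 1.93 with FPKM + 0.1. Without control replicate 2 (the 3 libraries are those named above), they were as follows. Fbln5 (-0.0011) was -0.078 to 0.10 with 1 library left out, 0.15 with total counts, 0.030 with no filter, 0.00038 with the count filter, 0.0062 with FPKM + 1, 0.0065 with FPKM + 0.1, 0.0032 with the title number. Eln (0.89) was -0.27 to 1.299 with 1 library left out, -0.34 with the 3 libraries. Mfap4 (2.38) was -0.31 to 2.89 with 1 library left out. Sparcl1 (0.50) was -0.027 to 1.37 with 1 library left out. Spon1 (-0.090) was -0.58 to 0.16 with 1 library left out, 0.064 with total counts. Thbs1 (-0.38) was -1.03 to 0.90 with 1 library left out, 0.035 with the title number, 1.15 with the 3 libraries. Thbs2 (-1.38) was -2.09 to 0.14 with 1 library left out. Lamc1 (0.041) was -0.34 to 0.58 with 1 library left out. Nid1 (-0.14) was -0.66 to 0.71 with 1 library left out, 0.013 with voom, 0.015 with FPKM + 1, 0.017 with FPKM + 0.1, 0.10 with the title number, 0.75 with the 3 libraries. Hspg2 (0.37) was -0.23 to 1.47 with 1 library left out. Prelp (-0.075) was -0.25 to 0.068 with 1 library left out, 0.050 with total counts, 0.22 with the 3 libraries. Lox (-0.62) was -1.21 to 0.44 with 1 library left out. Low counts limit P4ha3, which was tested with no filter or with control replicate 1 or 3 left out of 5, and Mfap2, Mfap4 and Loxl3 in control replicate 2 (0, 2 and 0 counts).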
